A study of Mus musculus with 7 samples.

Results

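The Maf transcription factor genes Mafa, Maf, Maff, Mafg, Mafk, and Nrl were examined in the open chromatin of mouse pancreatic alpha, beta, and delta cells. For each of the 6 genes, every distinct peak that overlapped the gene body or the 50 kb on either side of it was taken, and 420 of the 1190565 peaks of the 7 libraries met this rule. The lists gave 55 and 68 such peaks in alpha 1 and 2, 120, 32, and 52 in beta 1, 2, and 3, and 49 and 44 in delta 1 and 2. ATAC-Seq, in which the Tn5 transposase cuts and tags accessible DNA, had been run on 2 alpha, 3 beta, and 2 delta samples sorted from islets of healthy reporter mice pooled by sex. All samples came from animals that carried the mIns1-H2b-mCherry transgene, whose Ins1 promoter marks beta cells, and the Rosa-LSL-YFP reporter. YFP was switched on by Gcg-Cre for the alpha cells and by Sst-Cre for the delta cells, so every group, the beta cells included, carried reporter alleles and a Cre. The age of the mice is not given in the sources used here, and neither is the Cre line from which a given beta sample was sorted.

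Maf proteins are basic leucine zipper factors that bind an extended palindrome built around a TGACTCA or TGACGTCA core, called the Maf recognition element. The large Maf proteins carry an activation domain. MAFA activates the insulin genes in mature beta cells, MAF acts in lens and immune cells and has been linked to glucagon transcription, and NRL specifies rod photoreceptors. The small Maf proteins MAFF, MAFG, and MAFK lack that domain and act as partners of the NFE2-related and BACH factors at antioxidant response elements, whose core is TGACNNNGC.

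The files were peak lists, so strength was read from ranks. Within each list, peaks were ordered by their -log10 p, rank 1 being the strongest, and a peak with a -log10 q of at least 2 was called confident. A peak at a gene start was the strongest peak that came within 1 kb of the gene's 5' end in GENCODE. The lists held 75860 to 518503 distinct peaks and 25903 to 52057 confident ones. Beta 1 stood apart, with the most peaks and the fewest confident ones (5%, against 29.8% to 54.9% in the other lists). By the study's quality metrics, the 3 beta samples it kept had fewer unique mapped reads than both alpha samples, while beta and delta samples overlapped. The part of read depth in the results below was not tested. The median fold enrichment of the 25000 strongest peaks ran from 5.08 to 6.71 for beta and from 8.2 to 9.26 for alpha and delta libraries, and its part in the results below was not tested. In their names the 3 beta lists bear alpha or delta in place of beta, and they were grouped by label here. At the gene starts of 5 alpha markers (Gcg, Irx1, Irx2, Ttr, and Gc), the 2 alpha lists had a confident peak at every marker, 10 in all. The 2 delta lists had 8 together and the 3 beta lists had 4, so these starts set alpha apart from beta lists more than from delta lists. At those of the 5 delta markers (Sst, Hhex, Rbp4, Ghsr, and Ffar4), the delta lists had 8 confident peaks, the alpha lists also had 8, and the beta lists had 1. That beta peak was at Sst itself, in beta 1 (rank 22879), where both delta lists had only weaker peaks (ranks 130978 and 64898). The 6 beta markers (Ins1, Ins2, Nkx6-1, Slc2a2, Ucn3, and G6pc2) did not mark the beta lists by this measure, with 5 confident peaks in beta, 3 in alpha, and 5 in delta lists. Over all protein-coding genes, the start was confident for 53.7% and 56% in alpha 1 and 2. The share was 38%, 39.3%, and 47.7% in beta 1, 2, and 3, and 53.3% and 50.8% in delta 1 and 2. In sorted bulk samples, fewer cells with an open site and a less open site in each cell cannot be told apart. No list had a confident peak at any of 5 acinar or 3 immune markers, and 1 of 3 duct and 1 of 3 endothelial markers had one in a single delta list each. Both alpha lists and beta 1 carry lane code 6 in their names, and beta 2, beta 3, and both delta lists carry lane code 7, so alpha and delta cells cannot be told apart from their lanes.

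RefSeq promoter sequences of 300 bases, lying mostly before a start, matched 4 of the 6 genes on GRCm38.p6, and Mafa and Maf were unmatched. They are shown because the starts of the members differed in how regularly they were open and in where the peak summits fell. Capitals mark every match, on either strand, to 8 motifs that may overlap one another. These are the antioxidant core TGACNNNGC, the recognition cores TGACTCA and TGACGTCA, the Maf half-site TGCTGAC, the forkhead motif TGTTTAC, the homeodomain motif TAATTA, the E-box CAGATG, and the GC box GGGCGG. Of 32841 promoters of the same length, 12.4% held TGACNNNGC, 1.79% TGACGTCA, 5.2% TGACTCA, 4.67% TGCTGAC, 3.65% TGTTTAC, 5.29% TAATTA, 17.2% CAGATG, and 35.7% GGGCGG. The Maff sequence is the middle of 3 RefSeq promoters of the gene (chr15:79347270-79347569, plus strand). The others are Mafk (chr5:139791286-139791585, plus strand), Mafg (chr11:120633498-120633797, minus strand), and Nrl (chr14:55524203-55524502, minus strand).
Maff promoter: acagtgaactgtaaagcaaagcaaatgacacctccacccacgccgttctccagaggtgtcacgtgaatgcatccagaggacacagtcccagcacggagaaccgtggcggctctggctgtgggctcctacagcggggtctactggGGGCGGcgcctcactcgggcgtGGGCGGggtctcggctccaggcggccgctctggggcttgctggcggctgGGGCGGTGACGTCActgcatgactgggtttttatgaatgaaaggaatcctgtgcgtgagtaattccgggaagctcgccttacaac
Mafk promoter: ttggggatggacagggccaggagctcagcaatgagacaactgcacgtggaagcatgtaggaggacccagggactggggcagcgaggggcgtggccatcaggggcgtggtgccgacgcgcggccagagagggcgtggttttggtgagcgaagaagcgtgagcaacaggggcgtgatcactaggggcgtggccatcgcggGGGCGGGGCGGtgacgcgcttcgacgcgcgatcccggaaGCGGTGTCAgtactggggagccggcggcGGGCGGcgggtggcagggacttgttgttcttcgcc
Mafg promoter: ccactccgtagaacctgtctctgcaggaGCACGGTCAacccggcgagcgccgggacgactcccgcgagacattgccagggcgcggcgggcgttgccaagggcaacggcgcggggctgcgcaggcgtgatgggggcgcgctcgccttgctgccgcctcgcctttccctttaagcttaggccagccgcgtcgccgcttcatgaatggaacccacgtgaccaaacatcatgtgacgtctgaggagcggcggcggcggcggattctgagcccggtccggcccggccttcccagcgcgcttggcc
Nrl promoter: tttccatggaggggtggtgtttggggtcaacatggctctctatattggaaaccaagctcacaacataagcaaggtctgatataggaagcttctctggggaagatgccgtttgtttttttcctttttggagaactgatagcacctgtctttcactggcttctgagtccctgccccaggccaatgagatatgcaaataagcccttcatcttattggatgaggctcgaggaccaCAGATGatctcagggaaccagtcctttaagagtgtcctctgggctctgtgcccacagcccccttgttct

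The promoters shown differed in CpG content. Mafg held 39 CpG dinucleotides, Mafk 31, and Maff 21, against a median of 7 over all promoters, whereas Nrl held 2. The other 2 Maff promoters held 5 and 14. A TGACNNNGC match, the antioxidant response core, was present once each in Mafg and Mafk, and once in the Maff promoter at the annotated 5' end, which is not shown. In Maff, a TGACGTCA match directly followed 1 of 3 GC boxes.

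Of the 7 regions of the family windows that were confident in at least 2 libraries and away from gene starts, 2 had summit windows of 300 bases free of exons. Each of these 2 held TGACTCA close to its summit. One lies 41.1 kb upstream of the Maf start (chr8:115748711-115749010, plus strand), with the match 32 bases from the summit. The other lies 20.7 kb downstream of the Mafk start, in an intron of Tmem184a (chr5:139812101-139812400, plus strand), with the match 7 bases from the summit. It is within 1 kb of an annotated Tmem184a transcript start, though not of a gene's 5' end. TGACTCA was present in 16.3% of 51185 windows of 300 bases centred on shared regions of the genome. The summit windows of the 7 regions that overlapped exons, not shown, held no TGACTCA. Among them, the window at Maff +11.1 kb held TGCTGAC and TGACNNNGC, which 6.97% and 15.6% of the genome's windows held. Capitals mark the same 8 motifs as above.
Maf upstream region: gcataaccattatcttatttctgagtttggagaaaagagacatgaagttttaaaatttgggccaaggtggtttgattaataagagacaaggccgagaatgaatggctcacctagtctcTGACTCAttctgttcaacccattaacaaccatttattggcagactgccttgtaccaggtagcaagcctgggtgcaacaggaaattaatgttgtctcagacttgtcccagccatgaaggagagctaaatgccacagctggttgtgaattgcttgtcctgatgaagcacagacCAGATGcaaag
Mafk downstream region: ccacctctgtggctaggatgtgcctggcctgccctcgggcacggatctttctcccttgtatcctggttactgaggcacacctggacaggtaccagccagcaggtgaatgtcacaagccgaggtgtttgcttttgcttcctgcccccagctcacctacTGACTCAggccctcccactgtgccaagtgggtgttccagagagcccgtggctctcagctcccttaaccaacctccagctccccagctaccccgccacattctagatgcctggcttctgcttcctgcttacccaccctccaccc

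**Figure D1:**
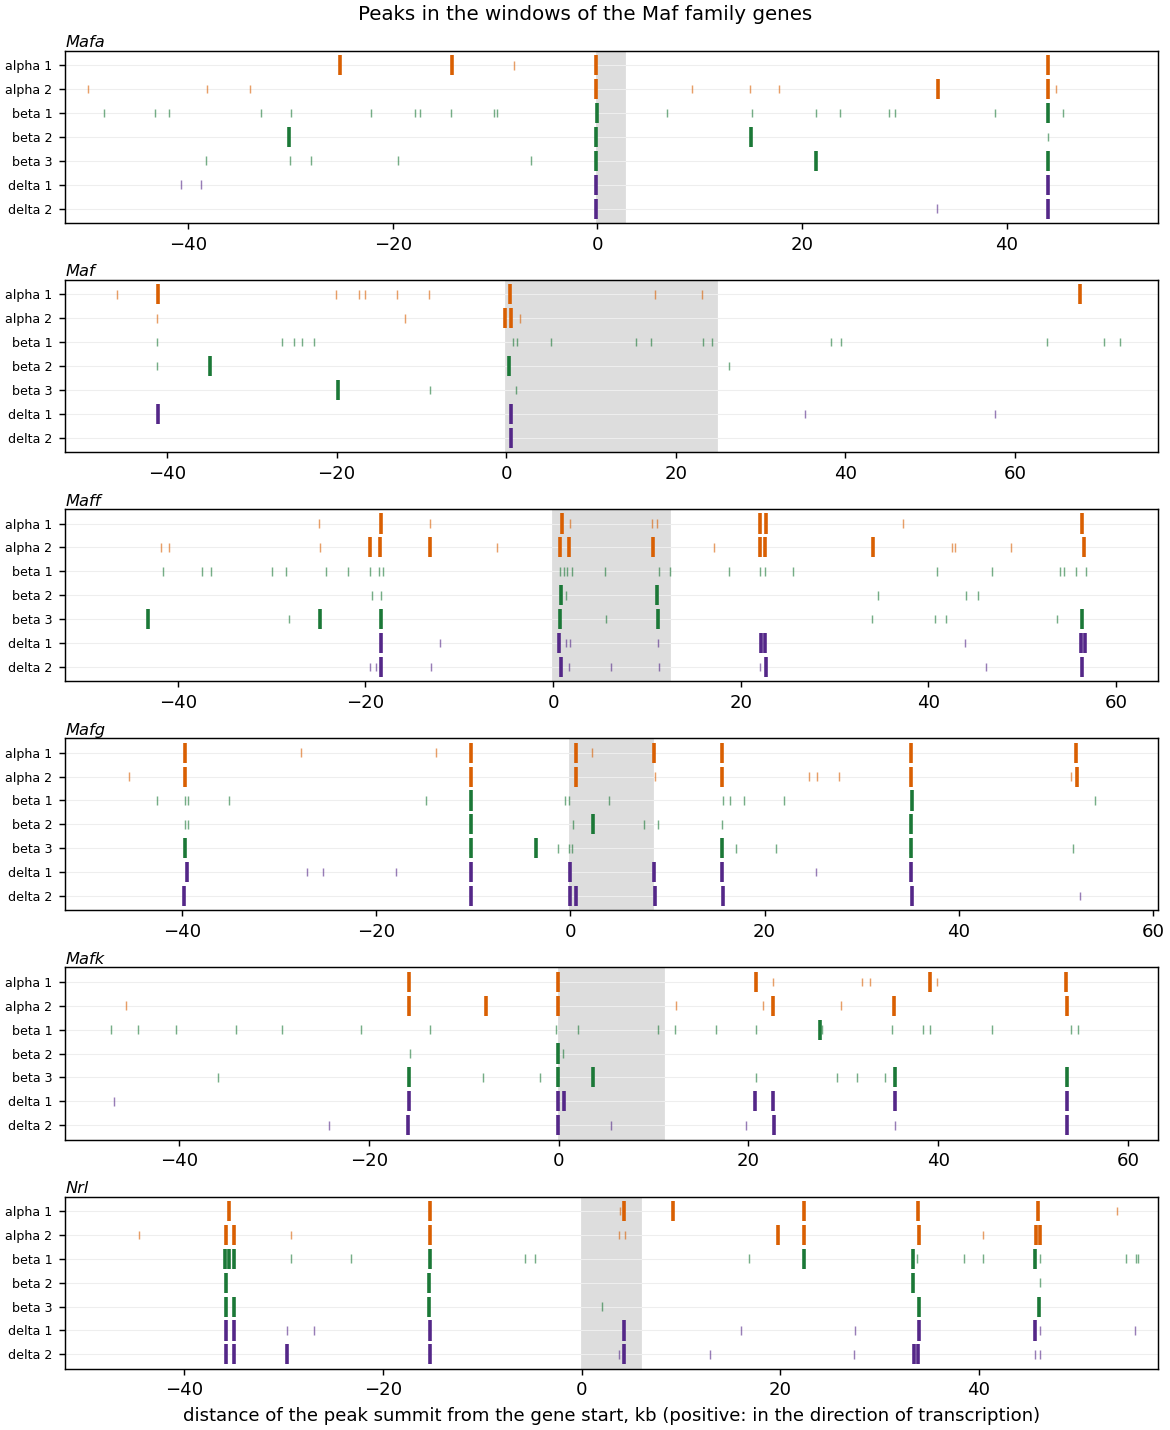
Peak summits in the windows of the 6 Maf family genes, drawn by distance from the gene start in kb on the x axis, with 1 line per library (orange, alpha; green, beta; purple, delta) and the gene body in grey. Tall ticks are confident peaks and short ticks are weaker ones. The Mafa start carries a tall tick in all 7 libraries, and beta 1 has the densest short ticks.

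Mafa, the insulin gene activator, lies on the minus strand of chromosome 15 (chr15:75745490-75748228), and its start was the most strongly open of the family in every library. The rank of the peak at the start was 5331 and 3419 in alpha 1 and 2. It was 5518, 6404, and 6923 in beta 1, 2, and 3, and 6581 and 5583 in delta 1 and 2. Both alpha ranks were thus stronger than every beta and delta rank, although alpha 1 and beta 1 were close. The summit lay 90 to 187 bases upstream of the start, and the fold enrichment ran from 7.5 to 14.6. Expressed as the TSS rank score, log2(25000/rank), the level was 2.55 ± 0.45 (SD, n = 2) in alpha, 2 ± 0.17 (n = 3) in beta, and 2.04 ± 0.17 (n = 2) in delta cells. Alpha exceeded the rest by 0.53 (exact two-sided permutation test, p = 0.0476, the smallest that 21 assignments allow, and adjusted p = 0.479 over 12064 genes). When the percentile in the whole list was used in place of the rank, the same contrast gave p = 0.333 in the exact permutation test. Beta cells differed from the rest by -0.30 (exact permutation p = 0.286), which did not pass. The score of Mafa varied over a range of 1.02 among the 7 libraries, and 7.17% of the 6818 genes with a confident peak at the start in every library had a smaller range.

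Of 8 confident regions in the Mafa window, 6 were called in a single library (75%), as were 54.1% of the 111614 merged regions of the genome. The remaining one besides the Mafa start was the Rhpn1 start, 44.0 kb downstream, where ranks were 5060 and 3199 in alpha, 14210 and 7145 in beta 1 and 3, and 7342 and 13744 in delta cells. Beta 2 had a weaker peak there, at rank 78582. Within the 50 kb upstream of Mafa, 3 confident regions were found, each in 1 library (alpha 1 at 25.1 and 14.2 kb, beta 2 at 30.2 kb), all in introns of Zc3h3. At the region 30.2 kb upstream, beta 1 and beta 3 had weaker peaks (ranks 204622 and 74520), and no alpha or delta list had a peak at any level.

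Maf, on chromosome 8 (chr8:115682942-115707794, minus strand), had a weaker and less regular start. A confident peak was present in 5 of 7 libraries, at ranks 25313 and 19480 in alpha, 22699 in beta 2, and 21947 and 36066 in delta cells. Its summit lay 377 to 546 bases inside the gene, within an exon of Maf. Beta 1 and beta 3 had weak peaks only, at ranks 402413 and 85126. The mean score was 0.18 ± 0.26 (SD) in the 2 alpha, 0.0464 ± 0.08 in the 3 beta, and 0.094 ± 0.13 in the 2 delta libraries, and these values overlapped. Beta differed from the rest by -0.0905 (exact permutation p = 0.543). The region 41.1 kb upstream, whose sequence is given above, was confident in alpha 1 at rank 48922 and in delta 1 at rank 23604, that is, in 1 replicate each of both cell types. Weaker peaks lay there in alpha 2, beta 1, and beta 2, and none in beta 3 and delta 2.

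Maff, the first of the small Maf genes, lies on chromosome 15 (chr15:79346621-79359076, plus strand). The summit of the peak at its start fell inside the middle RefSeq promoter in all 7 libraries. The RefSeq transcript start of this promoter lies 899 bases downstream of the annotated 5' end. A further region, 1.8 kb downstream of that end, was confident in alpha 2 alone (rank 24241). Its summit fell inside the most downstream Maff promoter, and alpha 1, delta 1, and delta 2 had weaker peaks there. At the start, the rank was 10054 and 12298 in alpha, 29116 and 15417 in beta 2 and 3, and 36241 and 15732 in delta cells. Beta 1 had a weak peak there at rank 471559. Alpha scores (1.17 ± 0.21, SD, n = 2) were above those of the other 5 libraries (0.273 ± 0.37), a difference of 0.90 with p = 0.0476 in the exact permutation test and an adjusted p of 0.479. The difference was 1.25 with exact permutation p = 0.0952 when ranks up to 50000 were scored.

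Beyond its start, the Maff window held a region 22.4 kb downstream that was confident in all 4 alpha and delta libraries. It lies in an intron of Tmem184b, within 1 kb of an annotated Tmem184b transcript start. Ranks there were 32795 and 29493 in alpha and 29961 and 28315 in delta cells. Beta 1 had a weaker peak at rank 66853, and beta 2 and beta 3 had none. A region 11.1 kb downstream, in an exon of Maff, had a different pattern. It was confident in beta 2 and 3 (ranks 20354 and 16005) and in alpha 2 (rank 22074), whereas delta 1 and 2 had weaker peaks at ranks 88516 and 74463, as did alpha 1 at rank 53946 and beta 1 at rank 205012. The neighbouring Pla2g6 start, 18.4 kb upstream, and the Tmem184b start, 56.4 kb downstream, were each confident in both alpha libraries, beta 3, and both delta libraries.

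Mafg, on chromosome 11 (chr11:120625117-120633600, minus strand), had a confident peak near its annotated 5' end in the alpha and delta libraries and in no beta library. Confident peaks were present in alpha 1 and 2 (ranks 20922 and 15225) and in delta 1 and 2 (ranks 21670 and 30114). The 3 beta lists had weak peaks at ranks 142361, 60221, and 87156, and none was confident. This holds for that single 5' end, since a region 2.3 kb inside the gene, within 1 kb of another annotated Mafg transcript start, was confident in beta 2 (rank 26443), with a weaker peak in alpha 1 (rank 101814). Among the 10131 protein-coding genes with a confident peak at the start in all 4 alpha and delta libraries, 4.44% had none in any beta library. The summit of the strongest peak was 607 to 623 bases inside the gene in both alpha libraries and delta 2, and 75 bases upstream in delta 1. Delta 2 also had a second confident peak, at rank 39586, so that a confident summit fell inside the RefSeq promoter shown above in 2 libraries, both of them delta. As the ranks lie near 25000, the scores were low, and beta differed from the rest by -0.30 (exact permutation p = 0.143). With ranks up to 50000 scored, the difference was -1.23 (exact permutation p = 0.0286). Alpha exceeded the rest by 0.45 (exact permutation p = 0.0476, adjusted p = 0.479 over all genes), or p = 0.19 by percentile.

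Mafg sits among closely packed genes, and 7 of the 9 confident regions of its window lay within 1 kb of a gene start and recurred between libraries. The start of Pycr1, a proline synthesis enzyme, and the paired starts of Anapc11 and Alyref were confident in all 7 libraries. Pcyt2 and Aspscr1 were confident in all libraries except beta 1 and beta 2. The Arhgdia start, 52.2 kb downstream, was confident in both alpha libraries (ranks 16957 and 16572) and in no other, with a weak peak in beta 3. The start of Sirt7, which adjoins the 3' end of Mafg, was confident in alpha 1, delta 1, and delta 2.

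Mafk, on chromosome 5 (chr5:139791513-139802653, plus strand), had a confident peak at its start in 6 libraries, at ranks 16188 and 11182 in alpha, 16874 and 24819 in beta 2 and 3, and 16181 and 13662 in delta cells. Beta 1 had a weak peak at rank 343653. The 6 confident summits lay within 67 bases of one another and inside the promoter sequence shown. In scores, the 3 beta libraries (0, 0.57, and 0.0105) lay below the 4 others (0.63, 1.16, 0.63, and 0.87), with beta 2 close to alpha 1 and delta 1. The difference of -0.63 had p = 0.0286 in the exact permutation test, the smallest that 35 assignments allow, with an adjusted p of 0.402 over all genes. Without beta 1 it was -0.53 with exact permutation p = 0.133, where 0.0667 is the smallest possible p. Permuted within lanes, it had an exact p of 0.0556, the smallest that 18 assignments allow. For Maff and Mafk alike, beta 1 was the library without a confident peak, as it was for 11.5% of the 7702 genes with one in the other 6 libraries.

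Downstream of Mafk, a region at 22.6 kb overlaps an exon of Tmem184a and is within 1 kb of an annotated Tmem184a transcript start. This region was confident in delta 1 and 2 (ranks 28675 and 24100) and in alpha 2 (rank 15800). It had a weaker peak in alpha 1 and no peak at any level in the 3 beta lists. The region at 20.7 kb was confident in alpha 1 and delta 1, at ranks 30521 and 46141, with weaker peaks in beta 1 (rank 26910) and beta 3 (rank 101865). The Ints1 start, 15.8 kb upstream, and the Gm24146 locus, 53.5 kb downstream, were confident in alpha, delta, and beta 3 libraries.

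Nrl, the rod photoreceptor factor on chromosome 14 (chr14:55518978-55524981, minus strand), had no peak at any level within 1 kb of its 5' end in any library. Among 21938 protein-coding genes, 38.1% had no confident peak at the start in any of the 7 libraries. This is a looser condition than no peak at any level, for which the share was not taken. A region 4.3 kb inside the gene, in an exon of Nrl and within 1 kb of another annotated Nrl transcript start, was confident in alpha 1 (rank 20718) and in delta 1 and 2 (ranks 38595 and 21320), was weak in alpha 2, and had no peak in any beta list. The starts of Pck2, Carmil3, and Dcaf11 in the same window were confident in all 7 libraries, so these neighbours did not share the lack of a peak at the Nrl start. A region of 232 bases in a Carmil3 intron, 22.4 kb downstream and within 1 kb of an annotated Carmil3 transcript start, followed the lanes. It was confident in alpha 1, alpha 2, and beta 1 (ranks 2640, 43019, and 7528) and had no peak at any level in the 4 libraries of lane 7. Of the shared regions of the genome, 1.26% were confident in all 3 libraries of lane 6 and in none of lane 7.

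**Figure D2:**
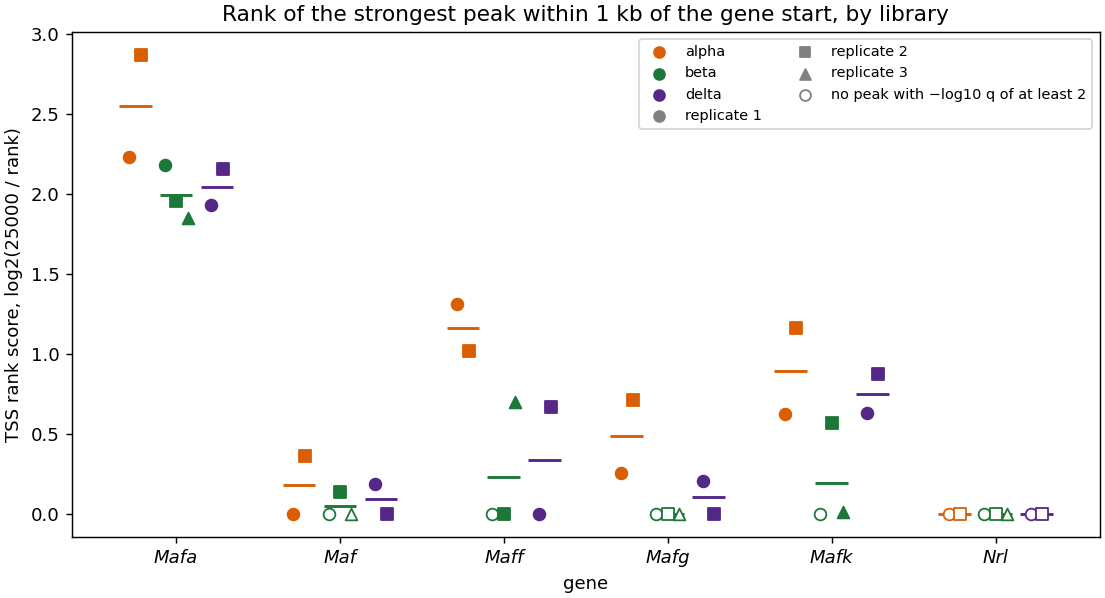
TSS rank score, log2(25000/rank) of the strongest peak within 1 kb of the gene start (y axis), for each of the 6 genes (x axis) and each library. Points are libraries, bars are cell type means, and open points have no confident peak. Mafa sits at 1.85 to 2.87, above every other member, and Nrl sits at 0 throughout.

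Across the family, the starts fell in an order that was led by Mafa in each library. Mean scores over the 7 libraries were 2.17 for Mafa, 0.552 for Mafk, 0.529 for Maff, 0.168 for Mafg, 0.0982 for Maf, and 0 for Nrl. Libraries of the neighbouring genes in this order overlapped from Mafk down to Nrl, and Mafa overlapped with none. Mafa was the one member of 6 with a confident peak at the start in all 7 libraries, a state shared by 31.1% of all protein-coding genes.

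Each cell type was then compared with the rest by exact permutation tests of the TSS rank score. Of the 5 members that could be tested, Mafk (lower) passed an unadjusted p of 0.05 for beta cells, where 7.11% of 12064 genes did. Mafa, Maff, and Mafg (all higher) passed for alpha cells, where 9.94% of genes did, and none passed for delta cells, where 4.67% of genes did. No gene of the genome passed after Benjamini-Hochberg adjustment in any of these contrasts, with 858, 1199, and 563 genes at an unadjusted p under 0.05 for beta, alpha, and delta cells. The smallest p that the exact permutation test allowed was 0.0286 for beta and 0.0476 for alpha and delta cells. An adjusted p under 0.05 would have needed most tested genes at that floor, so the adjustment decides nothing here. The direction was not particular to the family, since 931 of the 1199 genes that passed for alpha cells were higher there and 639 of the 858 for beta cells were lower. The median difference over all tested genes was 0.0779 for alpha and -0.125 for beta cells.

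The number of confident peaks in the whole window, per 10000 confident peaks of the library, was compared in the same way. For Mafa it was 0.69 ± 0.11 (SD, n = 2) in alpha, 0.832 ± 0.09 (n = 3) in beta, and 0.453 ± 0.039 (n = 2) in delta cells. Delta cells were lower than the rest by exact permutation test, with a difference of -0.323, p = 0.0476, and adjusted p = 1. These values rest on 2 to 4 confident peaks per library, and with the 25000 strongest peaks of each list the same exact permutation test gave p = 0.524. No other member passed in any contrast. Over 21430 genes, 10.3% passed for beta, 6.83% for alpha, and 4.17% for delta cells. None passed after adjustment, to which the same floors of p apply. For Maff, the count ran from 0 in beta 1 to 2.04 in alpha 2, the widest spread of the small Maf genes.

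**Figure D3:**
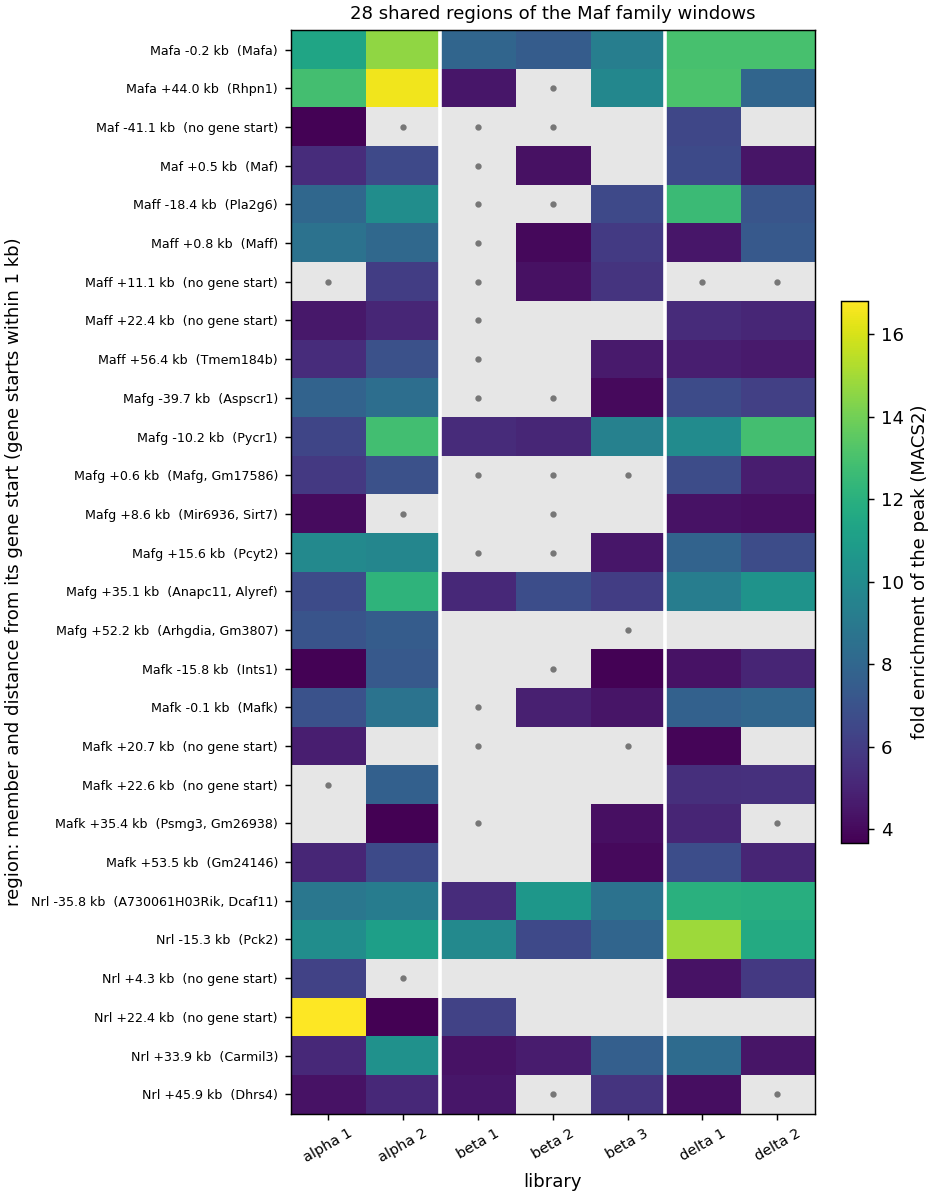
Fold enrichment of the strongest peak in each of the 28 regions that were confident in at least 2 libraries (rows, ordered by member and distance from its start; columns, libraries). Grey cells have no confident peak, and a dot marks a weaker peak. The Mafa start, the Pycr1, Anapc11, Dcaf11, Pck2, and Carmil3 starts are coloured in all 7 columns, and most grey cells lie in the beta columns.

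Confident peaks that overlapped were merged across libraries into regions. The 6 windows held 53 such regions, of which 28 were confident in at least 2 libraries, and 25 in 1 library alone. The shared ones made up 52.8% here and 45.9% over the genome. Of the 28 shared regions, 21 lay within 1 kb of an annotated gene start (75%), as did 28.1% of the 51202 shared regions of the genome, and the windows had been placed on genes. All 6 shared regions that were confident in all 7 libraries lay at gene starts, namely those of Mafa, Pycr1, Anapc11, Dcaf11, Pck2, and Carmil3. Of the regions at gene starts, 28.6% here and 45.5% over the genome were confident in all 7 libraries. Genome-wide, 21.6% of shared regions were confident in all 7, and 59.1% of those lay at gene starts.

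A region counted as selective where 2 or more replicates of a cell type had it as confident and every replicate of the compared type lacked it. Between alpha and beta cells, 3 regions were open in alpha and not in beta (background 14.9%), at Maff +22.4 kb, the Mafg start, and the Arhgdia start. No region was open in beta and not in alpha cells (background 5.63%). Between delta and beta cells, 5 regions were open in delta and not in beta (background 13.5%), namely Maff +22.4 kb, the Mafg start, the Sirt7 start, Mafk +22.6 kb, and Nrl +4.3 kb. The region in the exon of Maff at +11.1 kb was the 1 region open in beta and not in delta (background 4.15%). Between alpha and delta cells, the Arhgdia start and the Carmil3 intron region were open in alpha and not in delta (background 8.32%), and no region was open in delta and not in alpha (background 7.9%). At 3 and 5 of 28, the shares closed in beta were close to those of the genome, so the counts say nothing particular about this family. Of the 3 and the 5, only Mafk +22.6 kb and Nrl +4.3 kb had no peak at any level in the beta lists, and the rest had weak peaks in at least 1 of them. Without beta 1, 4 regions were open in alpha and not in beta, and 5 in delta and not in beta cells. Without beta 3, these counts were 9 and 11.

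**Figure D4:**
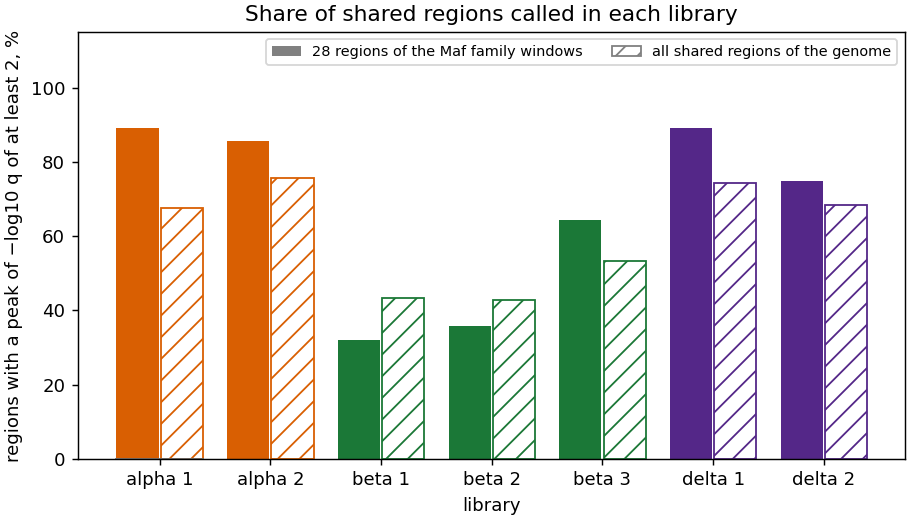
Share of shared regions with a confident peak in each library (y axis, percent, from 0), for the 28 regions of the Maf family windows (filled bars) and for the 51202 shared regions of the genome (hatched bars). Beta 1 and beta 2 have the lowest filled bars, 32.1% and 35.7%, and the lowest hatched bars.

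By library, alpha 1 and 2 had a confident peak in 25 and 24 of the 28 regions, delta 1 and 2 in 25 and 21, and beta 1, 2, and 3 in 9, 10, and 18. The same libraries ranked low over the genome, with confident peaks in 43.4%, 42.9%, and 53.2% of shared regions in beta 1, 2, and 3 and in 67.5% to 75.7% in the others. Of the 7 regions away from gene starts, each beta library had 1, and the alpha and delta libraries had 3 to 5. The matching shares by library over the genome's regions away from gene starts were not taken. Most of the 7 also lay within 1 kb of another annotated transcript start, of Tmem184b, Tmem184a, Nrl, or Carmil3. The lower counts of the beta libraries in the 28 regions thus went with lower shares over the genome and do not show a lack particular to these windows. For the 7 regions away from gene starts, no such comparison was made.

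Genes that work with or around the Maf proteins were set beside the members. Among 7 partner genes of the small Maf proteins, Nfe2l1, Nfe2l2, Bach1, Bach2, and Keap1 had a confident peak at the start in all 7 libraries. Nfe2l3 had one in 1 alpha library and Nfe2 had none. The start of Bach1, a repressor that pairs with small Maf proteins, was the strongest, at ranks 1073 to 2637. Of 9 regulators of Mafa, Nkx6-1, Neurod1, Foxa2, and Isl1 were confident in all 7 libraries. Pdx1, which binds the Mafa gene in beta cells, was confident in 5 libraries and in 1 of 3 beta lists, at rank 14652 in beta 3. Among 12 target genes, Pcx, Hmox1, and Gclm were confident in all 7 libraries, and Ins2, Slc2a2, G6pc2, and Txnrd1 in none. Over all protein-coding genes, 31.1% had a confident peak at the start in all 7 libraries and 38.1% in none. The Ins1 start ranked 6972 in beta 1 and 13849 in beta 3, against 35975 to 103286 in the other libraries, and the reporter transgene carries an Ins1 promoter as well. No gene of these lists passed an unadjusted p of 0.05 in any contrast of the TSS rank score. Over the list genes with a score above 0 in at least 1 library, the median difference between beta cells and the rest was -0.189 for 5 partners, 0.0865 for 8 regulators, and 0.0206 for 6 targets, beside -0.125 over all tested genes.

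The protein-coding genes whose 7 TSS rank scores were closest to those of Mafa were Nudt19, Gm2a, and Ube2d1, at Euclidean distances of 0.527, 0.579, and 0.63 score units over the 7 libraries. For Maf they were Unc5a, Abcd2, and Usp13, at 0.0566, 0.141, and 0.142. Maf scores lie near 0, and 12282 genes were within 1 unit of them, against 42 for Mafa.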

How the data were processed

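ATAC-Seq peak lists of 7 libraries of sorted mouse islet cells (2 alpha, 3 beta, 2 delta) were used, each grouped by its deposited label. Per the labels and the methods, reads passed through FastQC and Trimmomatic and were aligned by Bowtie 2 to a GRCm38 (mm10) index that left out mitochondrial DNA. Duplicates were then marked (Picard), blacklisted regions dropped, and peaks called by MACS2 separately per library. The authors' MACS2 made the -log10 p and -log10 q of each peak from that library alone, and its fold enrichment is a ratio over local background. The deposited score is about 10 times the -log10 p and was not used. In every list the lowest deposited -log10 p was 2.01.

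Peak lists hold no reads per region, so the count test of the study could not be repeated, and the level below which a peak is missed is unknown. Repeated intervals were counted once. Gene starts, exons, and windows came from GENCODE vM21. The TSS rank score is 0 where no peak of rank up to 25000 lies within 1 kb of the 5' end. Contrasts of one cell type with the rest used two-sided exact permutation tests over all assignments of the libraries, with Benjamini-Hochberg adjustment over genes with a value above 0 in at least 1 library, so that Nrl was not tested in the TSS rank score. The labels call the libraries biological replicates, and the methods state that mice were pooled by sex and that cell types were compared within the same animals. Given the Cre lines, the same animals can lie behind beta and alpha or beta and delta libraries, but not behind alpha and delta libraries. As the labels give neither the sex nor the animals behind a library, neither was a term in the tests, and p-values measure only the spread between these libraries.

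The members and the gene lists were chosen with earlier results of these data known. The named genes are the 6 members, neighbours with a region within 1 kb of their start, the fixed lists, and the 3 nearest genes of Mafa and Maf by TSS rank score. Regions were placed on the RefSeq sequence of GRCm38.p6, whose primary coordinates are those of mm10. The alternatives were ranks up to 50000, percentiles, a window of 3 kb, any transcript start, the 25000 strongest or all deposited peaks, flanks of 20 kb, stricter absence, coverage of a region, a replicate block, lanes, and each library left out. Other genes of the family were not analysed here, and 1 gene of the marker lists is not reported here. Python 3.11.15, numpy 2.4.6, pandas 2.3.3, and matplotlib 3.10.9 were used, and the steps were tested on simulated lists.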

Additional observations from a re-analysis of the deposited data

How the results depend on the processing

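Among the alternatives, ranks up to 50000 gave 2 members past an exact permutation p of 0.05 for beta cells in the TSS rank score, against 1, and percentiles gave 0 for alpha cells, against 3. A window of 3 kb and any transcript start left these counts within 1.5 times. With each library left out, the counts were 0 to 0 in every contrast of both measures, and the smallest p that such a test allows is 0.0667, or 0.1 for 3 libraries against 3, so this says nothing about stability. Within lanes the counts were also 0. The smallest p was 0.0556 for beta cells, and alpha and delta cells had only 3 and 6 assignments. No member could pass there, so this says nothing about stability either. Correlations of same-numbered libraries' deviations from their group means lay between -0.0386 and 0.00614. With 2 alpha and 2 delta libraries the deviations mirror each other within a group. Alpha and delta cells came from different Cre lines, so their libraries did not share animals. By the study's quality metrics, same-numbered beta samples differed in sex from the alpha and delta samples, and mice were pooled by sex. Whether those sample numbers match the labels is not given. The correlations therefore cannot tell whether a beta library shared animals with another. With the replicate block the counts were 0 in each contrast, the smallest p being 0.111 (for Mafk, -0.63 and exact permutation p = 0.111). No member could pass with this block, so its counts were fixed in advance.

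For window peak counts, the 25000 strongest peaks gave 1 member (Mafk) for beta cells and 0 for delta cells, and all deposited peaks gave 1 for alpha and 0 for delta cells, against 0, 0, and 1 for beta, alpha, and delta cells. The difference of Nrl, beta minus the rest, reversed from 0.168 to -0.586 with all deposited peaks and to -0.122 with flanks of 20 kb, and ran from -0.358 to 0.525 with each library left out. That of Maf, -0.117, ran from -0.281 to 0.0311, the last without beta 1. None of these passed. The causes were not tested.

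Selective regions depended on the rule. All deposited peaks gave 3 regions open in beta and not in alpha, 5 in beta and not in delta, and 2 in delta and not in alpha. The 25000 strongest peaks gave 1 in alpha and not in delta, 1 in beta and not in alpha, 2 in beta and not in delta, and 1 in delta and not in beta. When any weak peak counted as open, 0 in alpha and not in beta, 0 in beta and not in delta, and 2 in delta and not in beta were left. Required coverage of most of the region (a share of 0.5 or more) gave 11 in alpha and not in beta, 9 in delta and not in beta, 2 in delta and not in alpha, and 0 in beta and not in delta. Flanks of 20 kb gave 1 in alpha and not in delta. With each library left out, the ranges were 3 to 9 in alpha and not in beta, 5 to 11 in delta and not in beta, 0 to 1 in beta and not in alpha, 0 to 2 in beta and not in delta, and 0 to 2 in delta and not in alpha. The 9 and 11 were reached without beta 3.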
